A study of Mus musculus with 4 samples.

Results

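Integrin subunits are the 10 genes Itga4, Itga5, Itga6, Itgal, Itgam, Itgax, Itgb1, Itgb2, Itgb3 and Itgb7, taken by symbol from the annotation of the array's probe sets. They were 10 of 18193 named genes and had 25 of the 34945 probe sets that name a single gene, each read on all 4 arrays. Gene expression was measured on Affymetrix mouse arrays in 2 sorted marrow fractions without lineage antigens and with c-Kit, namely LSK cells, which also carry Sca-1 and include the hematopoietic stem cells, and MP cells, the myeloid progenitors, which lack Sca-1. The groups were Smo-deficient LSK, WT LSK, Smo-deficient MP and WT MP, with 1 array each. Smo-deficient mice were Smo flox/flox, Mx1Cre+ and WT mice were Smo flox/flox, Mx1Cre-, so the floxed gene was present in both genotypes; its product Smoothened passes on the hedgehog signal.

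Mice of both genotypes had been injected with the interferon inducer polyI:C, 3 times at 20 ug/g, and marrow was taken 6 weeks later. The Mx1 promoter that drives Cre responds to interferon and is not limited to blood cells. For each genotype the marrow of 4 animals of both sexes was combined, and both populations were sorted from that pool. The strain was labelled C57BL/6x130 for Smo-deficient LSK, C57BL/6x129 for WT LSK, C57BL/6x132 for Smo-deficient MP and C57BL/6x131 for WT MP. LSK and MP of a genotype came from 1 pool, so the number that differs between their labels cannot mark a difference of strain. The age was not given in the sources used here. With 1 pool per genotype there was no replicate, so genotype differences carry no p-value, and genotype, pool and the mix of sexes cannot be told apart. Precision is limited by the number of arrays.

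Integrins are receptors made of 1 alpha and 1 beta chain that hold cells to extracellular matrix and to ligands on other cells. They are switched to a binding state from inside the cell, by talin and kindlin at the tail of the beta chain, and they signal inward through adaptors and kinases. In bone marrow the alpha 4 chain paired with beta 1 binds VCAM-1 on stromal cells and helps to retain stem and progenitor cells, alpha 6 binds laminin, and the beta 2 integrins are the adhesion receptors of leukocytes.

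Levels are log2 intensities after RMA, and a difference of 1 on this scale is 2-fold. The label of the Smo-deficient mice was checked on the Smo probe set 1427049_s_at, which read 6.13 in Smo-deficient LSK and 10.81 in WT LSK, and 6.36 in Smo-deficient MP and 10.40 in WT MP. The probe set 1427048_at read 6.96 in Smo-deficient LSK and 10.02 in WT LSK, and 7.94 in Smo-deficient MP and 9.72 in WT MP, and the remaining probe set, 1442215_at, was at background on all arrays. Where these probes lie relative to the deletion was not analysed here. The sort was checked on genes of the stem cell fraction, where Procr, Slamf1, Cd34 and Flt3 rose in LSK over MP by 3.78, 1.31, 1.06 and 1.39 (limma, adjusted p = 9.86e-05, 0.00226, 0.000465 and 0.000586). The calls of Cd34 and Flt3 were lost without the pool as a block. Kit, which both gates select, differed by 0.22 (adjusted p = 0.0825; another probe set by -0.15), and Ly6a, which encodes Sca-1, was not analysed here. Arrays correlated with Pearson's r from 0.980 to 0.994 across probe sets, which are not independent replicates.

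A filter kept for counts and tests those probe sets whose 4-array mean exceeded the median probe set, a log2 intensity of 7.23. Of the 25 integrin probe sets 15 were past this filter, and they represent 9 of the 10 genes. Itgam was left without a probe set past the filter, at a mean level of 6.23. The 10 dim probe sets lay between 4.14 and 6.99 on every array. Just inside the filter were Itga5 1423267_s_at at 7.30 and Itgal 1425367_at at 7.35, and just outside were Itgb3 1421511_at at 6.81 and Itga5 1423268_at at 6.68. A gene is described by its brightest probe set, and its others past the filter are given beside it. Of the dim probe sets only some are given. Levels of different probe sets cannot be set against each other, since each has its own affinity.

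**Figure D1:**
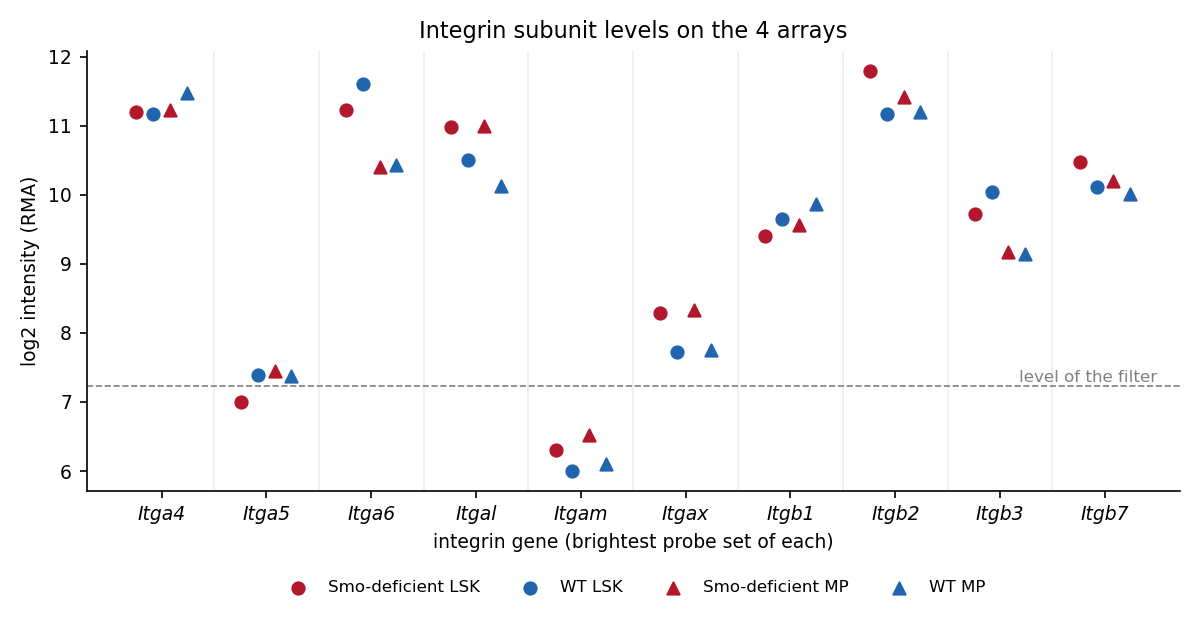
Log2 intensity (vertical axis) of the brightest probe set of each of the 10 integrin genes (horizontal axis) on the 4 arrays, with LSK as circles, MP as triangles, Smo-deficient in red and WT in blue. Itgam lies below the dashed level of the filter (7.23) on all arrays, and the LSK points of Itga6 and Itgb3 lie above their MP points.

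Between LSK and MP, the laminin receptor chain Itga6 and the beta chain Itgb3 rose in LSK, and the other integrin genes did not pass the test. Of 15 integrin probe sets past the filter 3 passed, all higher in LSK, which is near the share of all 22518 probe sets tested (22.3% passed, 15.1% higher and 7.19% lower). By gene, 2 of 9 passed, against 23.9% of the 11904 genes past the filter. The median LSK minus MP difference was 0.17 over the 9 integrin genes and 0.00 over all genes. By probe set it was -0.03 over the 15 integrin probe sets and -0.002 over all probe sets past the filter. The test was limma on all probe sets with the pool as a block. Its error starts from how far the difference varied between 1 Smo-deficient and 1 WT pool, and not between mice of 1 genotype. With 1 residual degree of freedom, limma moderates this error toward a variance fitted over all probe sets by mean level. The SE and p-values given here are moderated, and are not the spread between the 2 pools alone. The Actb 3' minus 5' difference, a sign of RNA quality and of amplification, was 1.53 and 1.55 in Smo-deficient and WT LSK, against 1.31 and 1.34 in Smo-deficient and WT MP, and its part in these results was not tested. In a sorted fraction, more cells that express a gene and more RNA per cell cannot be told apart.

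Itga6 encodes the alpha chain known as CD49f, which pairs with beta 1 or beta 4 to bind laminin and is used as a surface marker of stem cells. On 1422445_at its log2 intensity was 11.22 in Smo-deficient LSK and 11.61 in WT LSK, against 10.41 in Smo-deficient MP and 10.44 in WT MP. The lowest LSK value exceeded the highest MP value, and the share of all probe sets separated in this way was not counted. Integrin probe sets that did not pass were also separated, with LSK below MP. They were Itga4 1436037_at (11.20 and 11.17 in LSK, 11.23 and 11.47 in MP), Itga4 1421194_at and Itgb1 1427771_x_at. The LSK minus MP difference was 0.99 ± 0.12 (SE, 2 pools; adjusted p = 0.00277), or 1.99-fold, with 0.81 in the Smo-deficient pool and 1.17 in the WT pool. The other probe set, 1422444_at, read 9.57 in Smo-deficient LSK and 9.91 in WT LSK, against 8.64 in Smo-deficient MP and 8.88 in WT MP. It differed by 0.98 ± 0.11 (adjusted p = 0.00208), so both probe sets of the gene passed with differences of like size.

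Itgb3 encodes beta 3, the partner of alpha IIb on platelets and megakaryocytes and of alpha V on many cells. Its log2 intensity on 1455257_at was 9.72 in Smo-deficient LSK and 10.04 in WT LSK, against 9.17 in Smo-deficient MP and 9.14 in WT MP. Here too the LSK and MP values did not overlap, again without a share of all probe sets to set beside it. The difference was 0.73 ± 0.13 (SE, 2 pools; adjusted p = 0.0101), 0.56 in the Smo-deficient pool and 0.90 in the WT pool. Without the pool as a block it no longer passed (adjusted p = 0.0627), while the Itga6 calls held. The second Itgb3 probe set, 1421511_at, was below the filter and flat, between 6.77 and 6.87 on the 4 arrays.

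The alpha partners of beta 3 are alpha IIb (Itga2b, CD41) and alpha V (Itgav), and both of their genes also rose in LSK. Itga2b read 11.89 in Smo-deficient LSK and 12.46 in WT LSK, against 11.33 in Smo-deficient MP and 11.32 in WT MP, a difference of 0.85 ± 0.14 (adjusted p = 0.00855). Itgav read 10.14 in Smo-deficient LSK and 9.76 in WT LSK, against 9.50 in Smo-deficient MP and 9.09 in WT MP, a difference of 0.65 ± 0.11 (adjusted p = 0.00864). Both calls were lost without the block. Of all genes past the filter, 16.4% passed as higher and 7.54% as lower in LSK. Megakaryocyte and platelet markers moved the same way as Itgb3, with 6 of the 8 past the filter rising in LSK, Itga2b itself among the 8, and 0 falling. They included Vwf (1.54), Ppbp (1.38), Selp (1.24) and Gp1bb (1.23; another probe set past the filter differed by 0.07). Only Selp kept its call without the block, and that of Ppbp was also lost after quantile normalization and without the trend. The part of these cells in the Itgb3 and Itga2b values was not tested.

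The remaining alpha and beta chains differed less between LSK and MP, with mean differences of their brightest probe sets from -0.22 for Itga5 to 0.18 for Itgal. Several of these means rest on 1 pool. The difference was -0.45 in the Smo-deficient pool and 0.01 in the WT pool for Itga5, -0.01 and 0.37 for Itgal, and 0.38 and -0.04 for Itgb2. For Itga4 1456498_at it was 0.39 in the Smo-deficient pool and -0.45 in the WT pool. Itgb1, Itgb7 and Itgax differed by -0.18 ± 0.11, 0.18 ± 0.11 and -0.03 ± 0.11 (SE, 2 pools). The adjusted p-values of the 12 probe sets that did not pass ran from 0.205 to 0.936. A difference of the size of these standard errors would not have been detectable.

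**Figure D2:**
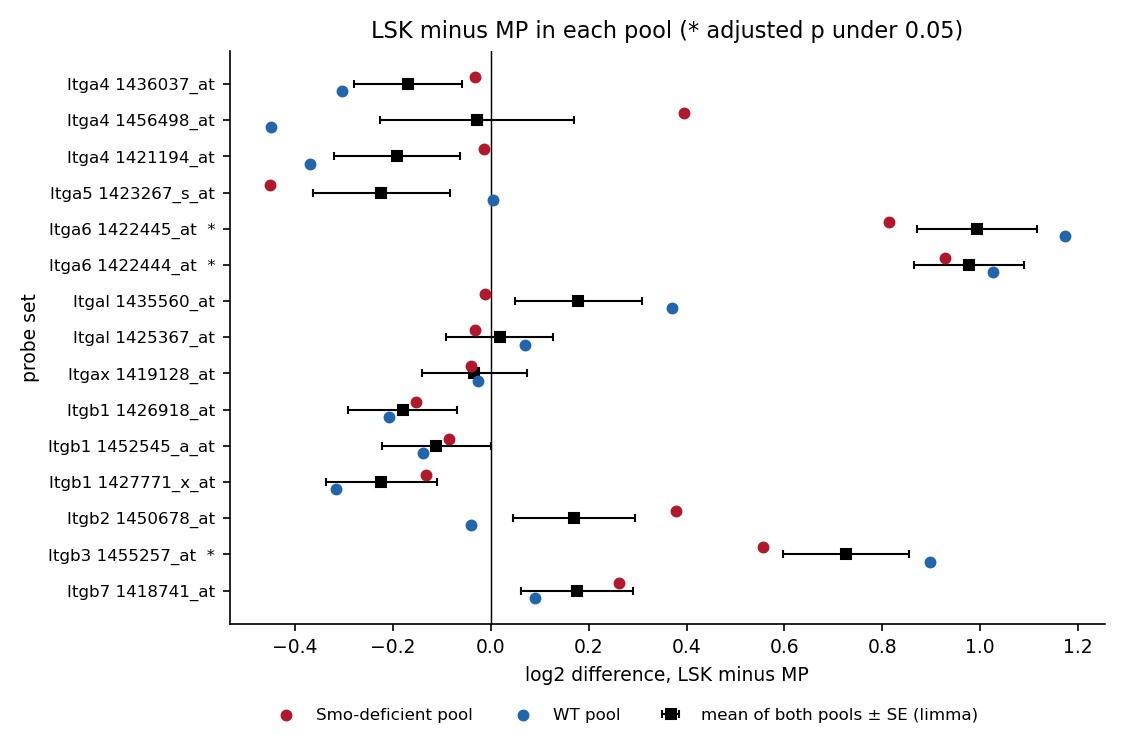
Log2 difference, LSK minus MP (horizontal axis), of the 15 integrin probe sets past the filter, in the Smo-deficient pool (red), the WT pool (blue) and as the mean of both ± SE from limma (black squares). The 3 starred probe sets, those of Itga6 and Itgb3, lie between 0.56 and 1.17 in both pools, above all other points.

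Between genotypes no integrin probe set past the filter reached 2-fold in either population (0 of 15), where 0.822% of all probe sets did in LSK and 0.639% in MP. At 1.5-fold, Itgb2 was higher in Smo-deficient LSK and Itgal in Smo-deficient MP, 1 of 15 in each population, beside 3.94% and 4.99% of all probe sets. The brightest probe sets of Itgal, Itgam, Itgax and Itgb2, which belong to the beta 2 family, were higher in the Smo-deficient pool in both populations, also under quantile and cyclic loess scaling. Itgad, another alpha chain of this family, was not analysed here. With Itgb7, and without the dim Itgam, 4 of 9 integrin genes past the filter had that pattern, whatever its size, beside 26.6% of all genes past the filter. Beside each difference stands its spread, a scaled median absolute deviation taken over all probe sets of like level, which is no error between replicates. The hybridisation spikes averaged 11.36 in Smo-deficient LSK and 11.24 in WT LSK, and 10.85 in Smo-deficient MP and 11.18 in WT MP, and their part in the genotype differences was not tested.

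Itgal encodes CD11a, the alpha chain of LFA-1, which binds the ICAM ligands. On 1435560_at it read 10.98 in Smo-deficient LSK and 10.50 in WT LSK, and 10.99 in Smo-deficient MP and 10.13 in WT MP. On this probe set both Smo-deficient arrays were thus above both WT arrays. The brightest probe sets of Itgax, Itgb2, Itgb7 and Itgam had the same order, and the share of all probe sets in that order was not counted. The genotype difference was 0.48 in LSK (spread 0.23) and 0.86 in MP (spread 0.25), or 1.39-fold and 1.82-fold, and the MP difference was the largest of any integrin probe set past the filter. The other Itgal probe set, 1425367_at, lay just inside the filter, between 7.32 and 7.41, with genotype differences of -0.09 in LSK and 0.01 in MP. The median of the 2 probe sets was 0.19 in LSK and 0.44 in MP, so the size for the gene depends on the probe set.

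Itgb2 encodes CD18, the beta chain that LFA-1, Mac-1 and CD11c share. Its single probe set read 11.80 in Smo-deficient LSK and 11.16 in WT LSK, and 11.42 in Smo-deficient MP and 11.20 in WT MP. The difference of 0.63 in LSK was 1.55-fold (spread 0.21), and that of 0.21 in MP was smaller than its spread of 0.23. Here Smo-deficient LSK stood above the other 3 arrays.

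Itgax encodes CD11c, found on dendritic cells and some macrophages. Its log2 intensity was 8.29 in Smo-deficient LSK and 7.73 in WT LSK, and 8.33 in Smo-deficient MP and 7.76 in WT MP. The differences of 0.56 in LSK and 0.58 in MP were nearly equal, with spreads of 0.21 and 0.20. Of 7 measured dendritic markers 4, Siglech, Xcr1, Cd209a and Itgae, were below the filter. Of the 3 past it, Flt3 was higher in Smo-deficient cells by 1.21 in LSK and 0.95 in MP, Zbtb46 differed by -0.13 and -0.10 (another probe set by -0.57 in LSK), and Bst2 by -0.31 and -0.33.

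Itgam encodes CD11b, the alpha chain of Mac-1 on neutrophils and macrophages and an antigen often included in lineage antibody mixes; the antibodies of this gate were not analysed here. It read 6.31 in Smo-deficient LSK and 6.01 in WT LSK, and 6.52 in Smo-deficient MP and 6.10 in WT MP. The differences were 0.30 and 0.41, but all 4 values were below the level of the filter.

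Many markers of several other cell types were also higher in Smo-deficient cells. Over all genes past the filter the median genotype difference was -0.02 in LSK and -0.05 in MP. Of these genes 26.6% were higher in Smo-deficient cells in both populations, and shares for 1 population alone were not counted. All 9 measured neutrophil markers were higher in Smo-deficient cells in both populations, with median differences of 0.79 in LSK and 0.21 in MP, led by Mmp8 (1.25 in LSK) and Mmp9 (1.13). Their summed intensity was 132847 in Smo-deficient LSK and 82391 in WT LSK, and 115601 in Smo-deficient MP and 100866 in WT MP. Such sums of linear intensities give most weight to the brightest probe sets. Of 11 macrophage and monocyte markers 10 were higher in Smo-deficient LSK (median difference 0.67). In Smo-deficient MP 6 were higher and 5 lower (median difference 0.23). Csf1r, the receptor for the macrophage growth factor, differed by 1.21 in LSK and 1.09 in MP (its other probe sets past the filter by 0.49 to 0.81 in LSK). Vcam1, an integrin ligand, is on this list too. The summed intensity of the 11 was 8855 in Smo-deficient LSK and 5778 in WT LSK, and 13776 in Smo-deficient MP and 9524 in WT MP. Csf1r was the brightest of them in MP, at a log2 intensity of 12.94 in Smo-deficient MP and 11.85 in WT MP. The rise of the sum rests largely on Csf1r in MP and also in LSK, where it read 11.87 in Smo-deficient LSK and 10.66 in WT LSK. B cell markers past the filter were higher in 6 of 6 cases in LSK (median difference 0.67), with Blnk at 1.18. In MP 5 of 6 were higher (median difference 0.26). The measured members of this list summed to 2956 in Smo-deficient LSK and 1851 in WT LSK, and 2193 in Smo-deficient MP and 1762 in WT MP. The part of such cells in the beta 2 values was not tested.

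**Figure D3:**
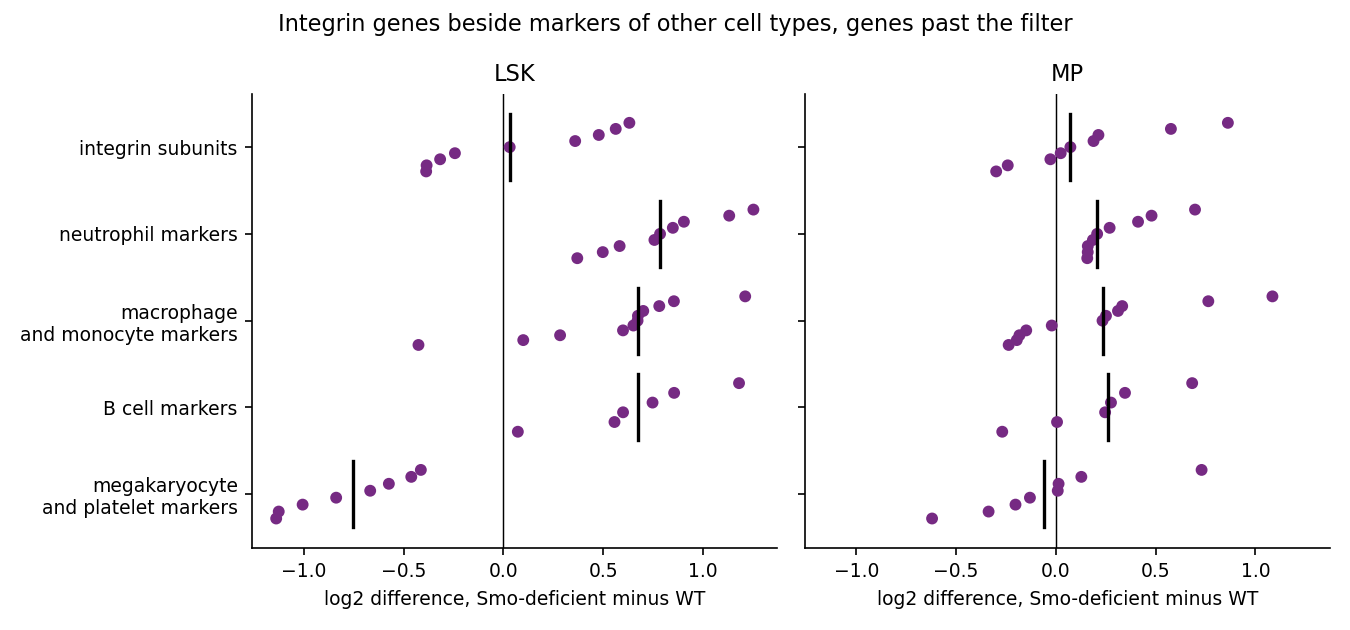
Log2 difference, Smo-deficient minus WT (horizontal axis), of integrin genes and of 4 lists of cell type markers, with LSK on the left and MP on the right, where each point is 1 gene past the filter and bars are list medians. The integrin median lies near 0 (0.03 in LSK, 0.07 in MP), the neutrophil median is 0.79 in LSK and 0.21 in MP, and all 8 megakaryocyte and platelet markers lie below 0 in LSK.

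The promoters of 6 of the 10 genes were in the RefSeq table used here (GRCm38.p6, from 250 bases before to 50 after the start). Those of Itgax and Itgam, which are next to each other in the genome and were both higher in the Smo-deficient pool, are shown with those of Itgb7, also higher, and of Itgb1, which was lower. Capitals mark GAGGAA, a core sequence bound by the myeloid factor PU.1, and TGTGGT, a core sequence bound by RUNX factors, on either strand (TTCCTC and ACCACA on the other). Itgax is at chr7:128129300-128129599 on the plus strand, Itgam at chr7:128062390-128062689 on the plus strand, Itgb7 at chr15:102231886-102232185 on the minus strand and Itgb1 at chr8:128685404-128685703 on the plus strand.
Itgax: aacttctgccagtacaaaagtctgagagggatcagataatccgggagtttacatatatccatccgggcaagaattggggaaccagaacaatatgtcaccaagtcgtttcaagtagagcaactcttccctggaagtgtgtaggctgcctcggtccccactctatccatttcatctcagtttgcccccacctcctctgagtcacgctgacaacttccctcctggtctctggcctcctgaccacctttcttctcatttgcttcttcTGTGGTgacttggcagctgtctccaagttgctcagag
Itgam: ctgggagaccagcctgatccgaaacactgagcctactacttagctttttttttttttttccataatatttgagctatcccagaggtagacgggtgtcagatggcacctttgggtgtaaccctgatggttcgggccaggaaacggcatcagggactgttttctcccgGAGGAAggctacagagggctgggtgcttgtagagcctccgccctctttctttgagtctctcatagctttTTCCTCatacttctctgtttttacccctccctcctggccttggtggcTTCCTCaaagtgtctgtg
Itgb7: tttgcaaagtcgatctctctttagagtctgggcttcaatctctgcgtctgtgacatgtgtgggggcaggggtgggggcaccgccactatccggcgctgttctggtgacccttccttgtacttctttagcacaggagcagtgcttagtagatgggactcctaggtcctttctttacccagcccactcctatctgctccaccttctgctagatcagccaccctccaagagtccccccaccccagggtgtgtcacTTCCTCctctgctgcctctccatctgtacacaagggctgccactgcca
Itgb1: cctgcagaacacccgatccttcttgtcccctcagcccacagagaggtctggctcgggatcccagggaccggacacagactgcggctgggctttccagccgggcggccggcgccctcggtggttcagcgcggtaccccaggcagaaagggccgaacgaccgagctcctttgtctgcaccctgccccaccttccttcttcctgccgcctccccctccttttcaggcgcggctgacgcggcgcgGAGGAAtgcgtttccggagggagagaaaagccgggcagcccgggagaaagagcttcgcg
GAGGAA occurred 3 times in the Itgam window, once in that of Itgb7 and once in that of Itgb1, and it was not among the letters of the Itgax window. Of the 4 windows shown only that of Itgax held TGTGGT. Among the 6 windows, with Itga4 and Itga5, 4 held GAGGAA and 2 held TGTGGT. Over all 32851 promoter windows of this length, 28.3% held GAGGAA and 16.8% held TGTGGT. The Itgb1 window also held 27 CG pairs, against 5 in Itgax, 6 in Itgam and 5 in Itgb7 and a median of 7 over all windows. A match describes the sequence and is not a measured binding site.

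Itgb7 encodes beta 7, which pairs with alpha 4 to bind MAdCAM-1 in gut vessels and with alpha E on mucosal lymphocytes. It read 10.47 in Smo-deficient LSK and 10.11 in WT LSK, and 10.21 in Smo-deficient MP and 10.02 in WT MP. The Smo-deficient value was the higher one in each population, by 0.36 in LSK (spread 0.22) and by 0.19 in MP (spread 0.25).

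Itgb1 encodes beta 1, the chain shared by the receptors for VCAM-1, fibronectin and laminin. On 1426918_at it read 9.41 in Smo-deficient LSK and 9.65 in WT LSK, and 9.56 in Smo-deficient MP and 9.86 in WT MP. Within each population the Smo-deficient value was the lower one, by differences of -0.24 in LSK and -0.30 in MP, with spreads of 0.23 and 0.25. The 2 other probe sets past the filter had the same signs, with -0.23 and -0.28 on 1452545_a_at and -0.12 and -0.30 on 1427771_x_at. With those of Itga6, 5 of 15 integrin probe sets were lower in both populations, beside 39.1% of all probe sets past the filter. The remaining 3 Itgb1 probe sets were at background, between 4.14 and 4.37.

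Itga4 encodes CD49d, the alpha chain of VLA-4. Its brightest probe set, 1436037_at, read 11.20 in Smo-deficient LSK and 11.17 in WT LSK, and 11.23 in Smo-deficient MP and 11.47 in WT MP. The difference was 0.03 in LSK and -0.24 in MP, so that WT MP stood above 3 nearly equal arrays. Its other probe sets past the filter had the same pair of signs, with 0.34 and -0.51 on 1456498_at and 0.15 and -0.21 on 1421194_at. On 1456498_at the genotype difference in LSK exceeded that in MP by 0.84 (spread 0.24), the widest gap among the integrins. None of the 15 reached 2-fold for this gap, where 0.608% of all probe sets did. The sign differed between LSK and MP for 6 of 15 integrin probe sets, beside 34.7% of all probe sets, and single arrays allow no test of it.

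Itga5 encodes the alpha chain of the fibronectin receptor. On 1423267_s_at it read 7.00 in Smo-deficient LSK and 7.38 in WT LSK, and 7.45 in Smo-deficient MP and 7.38 in WT MP. Smo-deficient LSK was the low array, by -0.38 (spread 0.18), and the MP difference was 0.07. The brightest of its dim probe sets, 1423268_at, had the opposite signs, 0.11 in LSK and -0.33 in MP. The other dim probe sets had the signs of 1423267_s_at, with -0.20 and 0.04 on 1458996_at and -0.004 and 0.09 on 1457561_at. Since the probe sets differ in sign and most are dim, no direction is given for the gene.

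Itga6 and Itgb3, the genes enriched in LSK, were both lower in Smo-deficient than in WT LSK. For Itga6 the genotype difference was -0.39 on 1422445_at and -0.34 on 1422444_at in LSK (spread 0.23 each), and -0.03 and -0.24 in MP. The MP sign of 1422445_at depended on the scaling and reached 0.10. For Itgb3 the difference was -0.32 in LSK (spread 0.23) and 0.02 in MP. Its partner Itga2b differed by -0.57 in LSK and 0.01 in MP, whereas Itgav differed by 0.38 and 0.41. All 8 megakaryocyte and platelet markers past the filter were lower in Smo-deficient LSK, with a median of -0.75 beside -0.02 over all genes. In MP 4 of 8 were lower, with a median of -0.06 beside -0.05 over all genes. The share of all genes lower in 1 population alone was not counted. The summed intensity of the 9 measured, with Gp6 below the filter, was 17388 in Smo-deficient LSK and 29283 in WT LSK, and 13477 in Smo-deficient MP and 14538 in WT MP. The part of this change in the Itgb3 and Itga2b values was not tested.

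**Figure D4:**
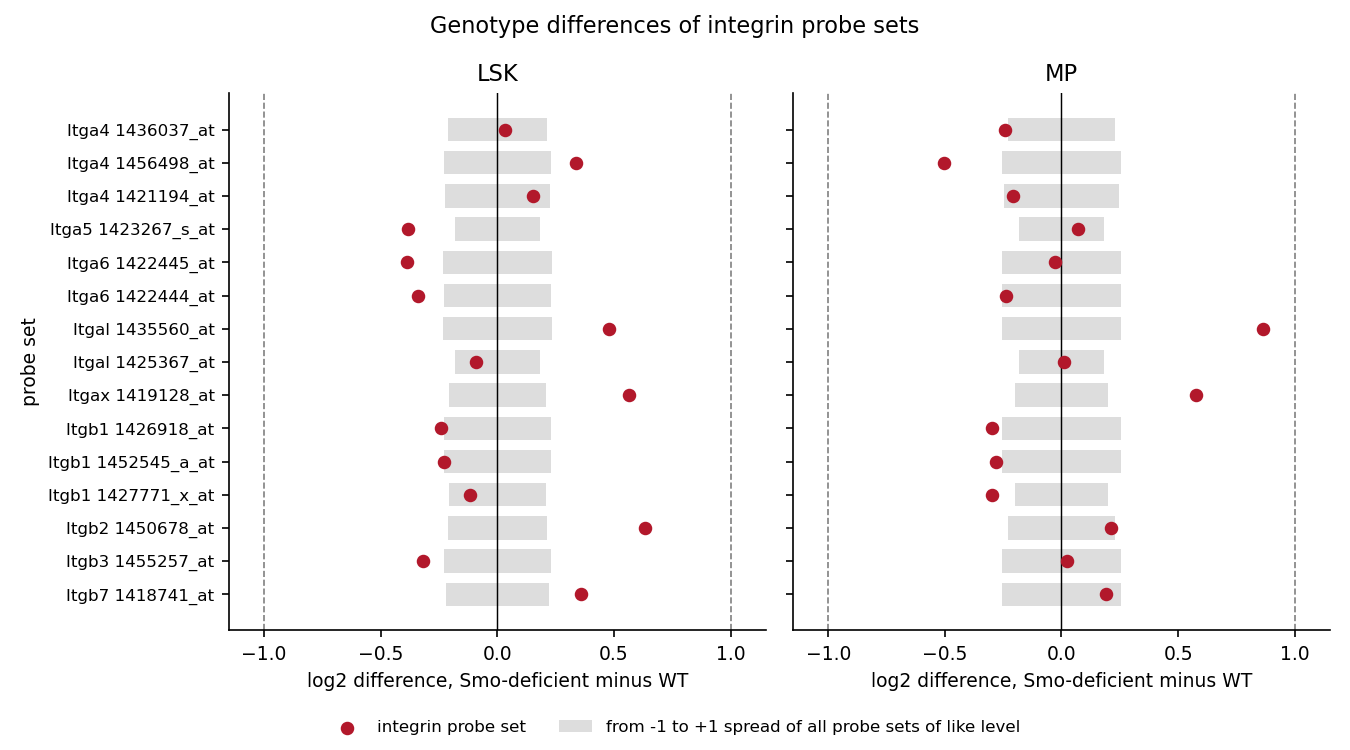
Log2 difference, Smo-deficient minus WT (horizontal axis), of the 15 integrin probe sets past the filter in LSK (left) and MP (right), with grey bars for 1 spread of all probe sets of like level on either side of 0 and dashed lines at 2-fold. No point reaches a dashed line, and the farthest are Itgal 1435560_at in MP (0.86) and Itgb2 in LSK (0.63).

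The other subunits, the adaptors, the kinases and the ligands were read on the same arrays. Of 16 further integrin subunit genes 14 were measured and 6 were past the filter. Of these 6, Itga2b and Itgav, described above, rose in LSK and 0 fell, beside 16.4% higher and 7.54% lower of all genes. Itgb5, which pairs with alpha V, differed by 0.37 between LSK and MP without passing (adjusted p = 0.0615), and by 0.36 in LSK and 0.46 in MP between genotypes, while its other probe sets past the filter differed by 0.17 to 0.63 between LSK and MP and by 0.40 to 0.99 between genotypes in LSK. The collagen receptor chain Itga1 was below the filter, at 6.63 in Smo-deficient LSK, 6.35 in WT LSK, 8.08 in Smo-deficient MP and 7.12 in WT MP.

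Of 25 genes of integrin activation and adaptors past the filter, 13 rose and 2 fell in LSK, with a median difference of 0.39, beside 16.4% higher and 7.54% lower of all genes. The largest were Tes (1.21), zyxin (Zyx, 0.98; another probe set differed by 0.44), Cytip (0.96), which regulates cytohesin-dependent adhesion, and Rassf5 (0.85), a Rap1 effector known as RAPL that binds LFA-1. The 2 that fell were Parvb (-0.62) and Apbb1ip (-0.53), whose product RIAM links Rap1 to talin. Without the block 6 rose and 0 fell, and the call of Parvb was also lost without the trend. Kindlin-3 (Fermt3), the kindlin of blood cells, rose by 0.39 ± 0.05 (adjusted p = 0.00224), while talin 1 (Tln1) differed by 0.24 ± 0.09 (adjusted p = 0.102; another probe set by 0.49). Itgb5, Itga1, Parvb, Apbb1ip, Fermt3 and Tln1 were chosen after their values were seen.

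For the kinases and the ligands too, the shares of all genes that passed were 16.4% higher and 7.54% lower in LSK. Of 14 kinase and signalling genes past the filter, 8 rose and 0 fell in LSK, with a median of 0.33. They were led by the Src family kinase Fyn (1.11), Pik3cg (0.81), Syk (0.75), which acts downstream of beta 2 and beta 3 integrins in leukocytes, and the Rac activator Dock2 (0.74; another probe set differed by 0.13). Of these 8 calls only that of Fyn held without the block. Of 11 ligand genes past the filter, 4 rose and 1 fell. The LFA-1 ligands F11r (JAM-A) and Icam1 rose by 1.86 ± 0.11 and 1.20 ± 0.11 (adjusted p = 0.000255 and 0.000938), Vwf by 1.54, and Emilin1 by 0.63 (another probe set differed by 0.06), while Icam4, chosen after its values were seen, fell by 0.46. Without the block the calls of Vwf, Emilin1 and Icam4 were lost, and that of Emilin1 was also lost after quantile normalization and without the trend.

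F11r read 9.60 in Smo-deficient LSK and 9.57 in WT LSK, against 7.81 in Smo-deficient MP and 7.63 in WT MP, so that the populations were well apart and the genotypes close. Icam1 read 9.77 in Smo-deficient LSK and 9.34 in WT LSK, against 8.57 in Smo-deficient MP and 8.15 in WT MP. By genotype none of the genes of these 4 lists reached 2-fold, except Vwf at -1.13 in LSK. List medians of the genotype difference lay between -0.14 and 0.08 in LSK and between 0.00 and 0.15 in MP. Vcam1, the ligand of VLA-4 and also a macrophage marker, read 10.16 in Smo-deficient LSK and 9.30 in WT LSK, against 9.61 in Smo-deficient MP and 9.81 in WT MP. Its genotype difference was larger in LSK by 1.05, the one gene of these lists at 2-fold for that gap, chosen after its values were seen. Its other probe sets past the filter differed by 0.02 and 0.31 in LSK.

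**Figure D5:**
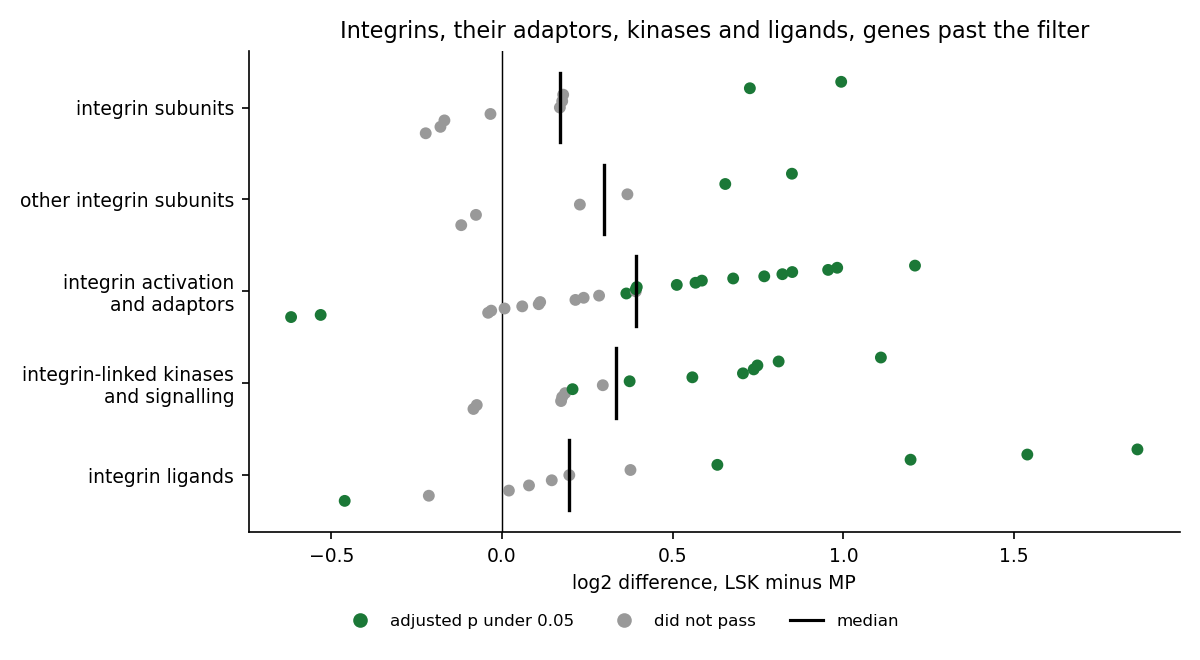
Log2 difference, LSK minus MP (horizontal axis), of genes past the filter in 5 lists, where each point is 1 gene, green points passed limma at an adjusted p under 0.05 and bars are medians. Of the integrin subunits 2 of 9 passed, and of the adaptors 15 of 25, beside 23.9% of all genes past the filter.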

How the data were processed

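The deposited intensity table, 1 column for each of 4 Affymetrix arrays, was made by the authors with RMA per the submitters' processing notes; 20 ng of total RNA per sample was amplified in 2 rounds before labelling, per the labels' protocols. The version used is not stated there. The values were read as linear intensities, since they exceed any log2 range, and log2 was taken without a pseudocount. RMA draws the arrays to 1 distribution, which can take out a shift that most genes have in common.

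The table held 45101 probe sets, of which 64 controls were set aside. Gene symbols came from the platform annotation, and the Entrez identifiers of all 10 integrin genes matched RefSeq. LSK was tested against MP with limma 3.58.1 (R 4.3.3; lmFit, eBayes with trend, two-sided, pool as block, 1 residual degree of freedom) on 22518 probe sets, with Benjamini-Hochberg adjustment and a threshold of 0.05. The pairing by pool comes from the design, in which both populations were sorted from 1 pool per genotype. The test was tried on simulated data with 200 changed probe sets. Genotype differences were counted past 2-fold without a test. The integrin genes and all lists were chosen with earlier results of these data known. Named were all integrin probe sets past the filter, and some of the dim ones. Of other lists, up to 4 passing genes with the largest LSK minus MP difference and up to 3 at 2-fold by genotype were named. Further genes were chosen after their values were seen. Alternatives were 2 further normalizations, 2 filters, a pseudocount of 32, a 1.5-fold threshold, no trend and no block.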

Additional observations from a re-analysis of the deposited data

Results flagged for a closer look

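For 6 of the 15 integrin probe sets past the filter the genotype difference had opposite signs in LSK and MP, a pattern seen in 34.7% of all probe sets past the filter, and with 1 array per group the gap was not tested. The genotype difference in LSK minus that in MP was 0.27 for Itga4 1436037_at, 0.84 for Itga4 1456498_at, 0.36 for Itga4 1421194_at, -0.46 for Itga5 1423267_s_at, -0.10 for Itgal 1425367_at and -0.34 for Itgb3 1455257_at. The 3 Itga4 probe sets read the same gene and are not independent.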

How the results depend on the processing

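The Itga6 calls between LSK and MP passed under all 7 alternatives run, with adjusted p up to 0.0399 on 1422444_at and up to 0.0391 on 1422445_at. Itgb3 passed under all except the fit without the pool as a replicate block, over a range of adjusted p from 0.00895 to 0.0627. Without that block 1058 probe sets passed in place of 5013, 2 integrin probe sets in place of 3, and the share higher in LSK was 86.8% in place of 67.7%, which was 53.7% after quantile normalization. At least 2-fold by genotype in LSK were 185 probe sets, 281 without a filter and 888 at 1.5-fold. In MP there were 144, and 1123 at 1.5-fold. The share higher in Smo-deficient MP was 43.8%, but 57.7% after quantile normalization and 64.6% after cyclic loess. The brightest probe sets kept their signs over 3 scalings beside the main one, except Itga6 in MP between genotypes (-0.03 to 0.10) and the gap between the genotype differences in LSK and MP for Itgb1 1426918_at, which was 0.06 but -0.06 after quantile normalization and -0.03 after cyclic loess. Each pool alone gave values without a test, shown above. Signal over background limits Itgam and the 10 dim probe sets.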

Other observations

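Genotype differences of the remaining marker lists were as follows, beside medians over all genes past the filter of -0.02 in LSK and -0.05 in MP. Shares of all genes higher or lower in 1 population alone were not counted. Mature erythroid markers past the filter were higher in Smo-deficient LSK in 3 of 3 cases (median 0.80) and in MP in 2 of 3 (0.14), with Hba-a1 below the filter. T and NK cell markers were higher in Smo-deficient cells in 3 of 4 cases in each population (medians 0.10 in LSK and 0.09 in MP), with Cd3d, Cd3g and Ncr1 below it. Mast cell and basophil markers were higher in 3 of 5 cases in LSK (median 0.23) and 5 of 5 in MP (0.34). In LSK against MP 4 of these 5 genes fell and 1 rose, beside 7.54% lower and 16.4% higher of all genes. Stroma and endothelium markers past the filter were lower in 3 of 3 cases in both populations (medians -0.25 and -0.04). In LSK Col1a2 differed by -1.76 and Pecam1 by -0.002. Cdh5, Col1a1, Col3a1, Cxcl12 and Lepr were below the filter, and of these only Cxcl12 was higher in Smo-deficient LSK (0.29).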
